A study of Drosophila melanogaster with 13 samples.

Results

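Metals enter and leave a cell through dedicated proteins, and the 10 genes described here encode a set of them for iron, copper and zinc. The members were chosen by symbol, with earlier results of these data known. They are the multicopper oxidases CG32557 (current name Mco4) and Mco1, the transferrins Tsf1 and Tsf3, the ferritin chains Fer1HCH and Fer2LCH, and the transporters Mvl, Zip88E, foi and Ctr1A. All 10 symbols were found among the 16727 gene rows of the count table, and each has a value in all 13 libraries.

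Per the labels, the RNA of every library came from secondary cells, large, scattered epithelial cells of the Drosophila male accessory gland, which add their own products to the seminal fluid made mostly by the main cells around them. Males were 5 to 11 days old. The D1 group (3 libraries of sorted cells) had the genotype D1:GAL4, UAS-GFP; iab-6cocuD1, a mutation in iab-6, one of the domains that control Hox genes of the Bithorax complex. The miP group (3 libraries of sorted cells) was D1:GAL4, UAS-GFP; delta MSAmiP, a mutant without the micropeptide of the iab-8 transcript. The ribosome immunoprecipitations (IPs, 3 libraries) came from UAS GFP-RPL10Ab, D1:GAL4 males, in which anti-GFP antibody pulls down a tagged ribosomal protein with its RNA. The control IP (1 library) used the same antibody on UAS GFP, D1:GAL4 males, whose ribosomes carry no tag. The wild type group (3 libraries of sorted cells) carried D1:GAL4, UAS-GFP alone, so the GAL4 driver is common to all 5 groups and every sorted library also carries the GFP reporter. The sorted cells were defined by that driver and by protease treatment of the glands, and no immunoprecipitation of a mutant was analysed here.

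Iron is taken up in its reduced form by divalent metal transporters, can be oxidised by multicopper oxidases, and is carried outside cells by transferrin and stored in ferritin. Insect ferritin differs from that of mammals in being a secretory pathway protein, built from heavy and light chains in equal number. Copper enters through Ctr1 importers and is buffered by metallothioneins, while zinc enters the cytosol through ZIP proteins and leaves it through ZnT proteins. Seminal fluid carries metal-binding proteins in many animals.

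Counted reads, in units of 1e6, came to 18.2 to 26.09 per library in sorted cells, 11.2 to 21.4 in the ribosome IPs and 3.70 in the control IP. The Hox gene abd-A, whose regulation the D1 lesion affects, had 0 to 2 counts in the D1 libraries, against 4116 to 5481 in wild type. D1 replicate 1 stood apart from its group: its scaling factor (trimmed mean of M-values, TMM) was 0.905, against 1.52 and 1.58 in the other D1 libraries and 0.798 to 0.831 in wild type. The factor of miP replicate 1 was likewise lower, at 0.797, against 1.01 and 1.06 in the other miP libraries. Summed CPM (counts scaled to a library total of 1e6) of 7 secondary cell markers were 191700 to 222700 in D1, 251500 to 305700 in miP, 19610 to 55780 in the ribosome IPs, 4703 in the control IP and 251000 to 266900 in wild type. Summed CPM of 6 testis markers were 0.238 to 1.45 in D1, 0.591 to 1.68 in miP, 5426 to 5838 in the ribosome IPs, 10070 in the control IP and 1.32 to 1.53 in wild type. For 8 main cell markers, of which Acp95EF was at 0 everywhere, the sums were 336 to 858 in D1, 112 to 272 in miP, 5650 to 7282 in the ribosome IPs, 13770 in the control IP and 66.2 to 454 in wild type. RNA of these testis and main cell markers was thus measured in the IPs in amounts that the sorted cells did not show. More of it was in the control than in the ribosome IPs, which does not hold for every marker list. Which tissue entered the IPs is not stated in the labels.

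The 10 genes together took 0.0522 to 0.157% of counted reads in D1, 0.0976 to 0.138% in miP, 0.193 to 0.222% in the ribosome IPs, 0.108% in the control IP and 0.0894 to 0.0990% in wild type. Their levels spanned a wide range, and the order of the genes differed between the sorted cells and the IPs.

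**Figure D1:**
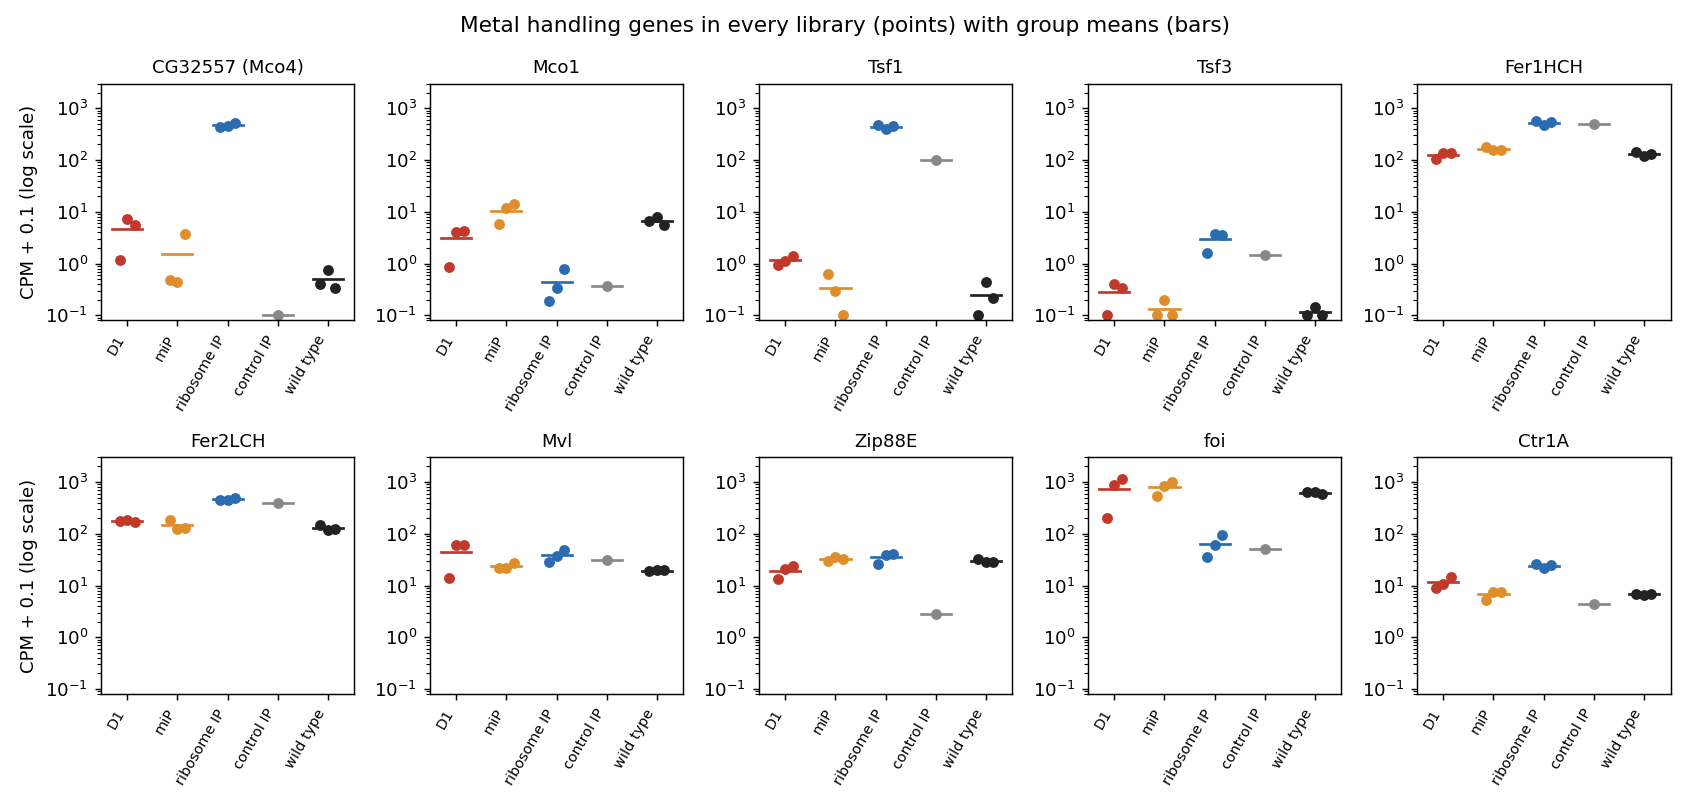
Level of each of the 10 genes in every library, as CPM plus 0.1 on a log axis; points are libraries and bars are group means. CG32557 and Tsf1 lie between 396 and 530 CPM in the 3 ribosome IPs and at 7.27 CPM or lower in every sorted library, while Mco1 is at 5.52 CPM or higher in every wild type library and at 0.688 CPM or lower in every IP.

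The most abundant of these transcripts per length in wild type cells was foi, a ZIP family zinc transporter known in flies for its part in gonad and tracheal morphogenesis. It averaged 147 CPM per kb of exon (138 to 151, n = 3) and stood at place 160 of 16509 genes. Fer2LCH, the ferritin light chain, followed at 78.5 CPM per kb, then Fer1HCH, the ferritin heavy chain with the ferroxidase site, at 54.5. Zip88E, another ZIP family gene, had 19.4 CPM per kb. Mvl (Malvolio, the fly NRAMP divalent metal transporter) had 3.43 CPM per kb, Ctr1A (the broadly used copper importer) 2.84 and Mco1 (a multicopper oxidase linked to iron homeostasis) 2.00. From foi down to CG32557, the ranges over the 3 wild type libraries of neighbouring genes did not overlap. The lowest levels were those of CG32557 (0.186 CPM per kb), Tsf1 (0.0520) and Tsf3 (0.00662), whose ranges overlapped each with the next.

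In the ribosome IPs the order by CPM per kb was different. Fer2LCH came first with 282 CPM per kb, followed by Fer1HCH with 220 and CG32557 with 219.5, which overlapped. Tsf1 was next with 154 CPM per kb, then Zip88E with 22.7 and foi with 15.3, which overlapped with each other and foi also with Ctr1A (10.3). Mvl had 6.76 CPM per kb, Tsf3 1.22 and Mco1 0.101. CG32557 thus stood at place 3 of 10 in the ribosome IPs and place 8 in wild type, Tsf1 at places 4 and 9, foi at places 6 and 1, and Mco1 at places 10 and 7.

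CG32557, on X:17852958-17856129 (dm6, minus strand), is a multicopper oxidase gene that has been studied less than Mco1. It had 4766, 9558 and 9253 counts in the ribosome IPs, 0 in the control IP, and 7, 14 and 6 in wild type sorted cells. In CPM the ribosome IPs stood at 426, 447 and 530, and the wild type cells at 0.298, 0.661 and 0.230. The IPs were high and the control and the wild type cells near 0, with no overlap. Against the control IP the difference was at least 581.5-fold, from a floor of 3 counts in the control and library totals, which give a lower bound than TMM factors do there (edgeR adjusted p = 0.00145), and against wild type cells the log2 fold change was 8.66 ± 0.37 (SE; edgeR adjusted p = 1.13e-07). Of the 4321 genes with 0 counts in the control IP, CG32557 had the highest mean level in the ribosome IPs (468 CPM). The next were lcs with 110 CPM and CG16826 with 102 CPM, named here after their values were seen, and 16 such genes reached 10 CPM. A count of 0 in the control allows up to 0.811 CPM of CG32557 there.

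Mco1, on 2L:9416588-9426342 (plus strand), showed the reverse. It had 1, 5 and 12 counts in the ribosome IPs, against 154, 168 and 144 in wild type cells, which is 0.0895, 0.234 and 0.688 CPM in the IPs and 6.55, 7.93 and 5.52 CPM in wild type. The control IP held 1 count, and Mco1 was not tested against it because its counts were too low. The ratio of pooled counts in the ribosome IPs to the control, scaled by TMM, was 1.73, with a counting interval (95%, exact) of 0.273 to 72.0. Against wild type cells the log2 fold change was -5.78 ± 0.54 (edgeR adjusted p = 1.43e-05), and -6.53 without ribosome IP replicate 3. Of the CPM per kb of both oxidases, CG32557 held 99.9 to 99.99% in the ribosome IPs and 6.13 to 11.5% in wild type sorted cells.

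Tsf1, on X:18387084-18390344 (plus strand), encodes the main secreted transferrin, which carries iron in the haemolymph and is made largely by the fat body. It stood at 472, 396 and 448 CPM in the ribosome IPs, 101 CPM in the control IP, and 0, 0.330 and 0.115 CPM in wild type cells. The ribosome IPs lay above the control and far above the wild type cells, which held 10 counts in all. The log2 fold change was 2.51 ± 0.31 against the control (edgeR adjusted p = 0.0216) and 9.99 ± 0.59 against wild type (edgeR adjusted p = 7.10e-07). Without ribosome IP replicate 3 the adjusted p against the control was 0.0560. Against wild type the log2 fold change was 9.37 without wild type replicate 1 and 11.17 without wild type replicate 2, the library with the highest Tsf1 value of the 3. The 6 fat body markers, 5 of them at 1 CPM or more in the IPs, summed to 71.7 to 88.6 CPM in the ribosome IPs, 84.8 in the control IP and 0.766 to 3.11 in wild type. Their part in the Tsf1 level was not tested.

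Tsf3, on 2R:16226501-16229869 (plus strand), belongs to the same family and lies within the bounds of CG15706 on the opposite strand, with 169 nt of shared exon. The libraries keep no strand information, so reads of the pair cannot be told apart there. Tsf3 had 17, 79 and 61 counts in the ribosome IPs, 5 in the control IP and 0, 1 and 0 in wild type cells. The ratio of pooled counts in the ribosome IPs to wild type was 74.4 when scaled by TMM, with a counting interval (95%, exact) of 13.2 to 2958, and 222 when scaled by library totals alone. The fitted log2 fold change was 5.79 ± 0.96 (edgeR adjusted p = 5.13e-04), and 8.28 without wild type replicate 2, which held the only count of that group. Against the control the log2 fold change of 1.48 ± 0.99 did not pass (edgeR adjusted p = 0.446).

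The 2 ferritin genes lie head to head on 3R, Fer1HCH at 3R:30385573-30388178 on the minus strand and Fer2LCH at 3R:30387804-30390584 on the plus strand, with 118 nt of shared exon between them. Reads from that stretch cannot be assigned to a chain by strand. Fer1HCH stood at 558, 477 and 533 CPM in the ribosome IPs, 488 in the control IP, and 141, 120 and 128 in wild type cells. Fer2LCH stood at 452, 450 and 492 CPM in the ribosome IPs, 396 in the control IP, and 146, 118 and 123 in wild type cells. Each of the 3 ribosome IPs lay above the control for Fer2LCH, and on both sides of it for Fer1HCH, and both chains were higher in all IPs than in wild type cells on the CPM scale. Neither passed the test against the control (log2 fold change 0.49 ± 0.27 and edgeR adjusted p = 0.367 for Fer1HCH, 0.62 ± 0.25 and 0.235 for Fer2LCH).

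Among the transporters, Zip88E (3R:15268662-15270532, plus strand) gave the largest fold over the control apart from CG32557. It had 26.5, 38.4 and 39.8 CPM in the ribosome IPs, against 2.70 CPM in the control IP, from 10 counts. The log2 fold change was 4.07 ± 0.46 (edgeR adjusted p = 0.0216). Its 3' part shares 101 nt of exon with Cp190 on the opposite strand. Ctr1A (X:6661647-6668258, plus strand) had 25.5, 21.4 and 25.4 CPM in the ribosome IPs and 4.32 in the control IP, with a log2 fold change of 2.86 ± 0.43 (edgeR adjusted p = 0.0248). For both genes every ribosome IP lay above the control. On the TMM scale that also held for Tsf3, Fer1HCH, Fer2LCH and Mvl, which did not pass, and among the tested members only foi overlapped the control.

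Mvl (3R:21051383-21060800, minus strand) had 27.9, 37.6 and 49.1 CPM in the ribosome IPs and 30.8 CPM in the control IP, and foi (3L:8525244-8534503, plus strand) had 35.9, 61.6 and 95.8 CPM in the ribosome IPs and 50.8 CPM in the control. The ribosome IPs lay on both sides of the control for each of these genes on the CPM scale. Neither passed the test, with log2 fold changes of 0.68 ± 0.35 (edgeR adjusted p = 0.329) and 0.71 ± 0.48 (edgeR adjusted p = 0.449).

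Against the control IP, 4 of the 9 members tested were thus higher in the ribosome IPs, namely CG32557, Zip88E, Ctr1A and Tsf1, and none was lower; of all genes tested in this comparison, 3.52% passed in either direction, 3.25% higher and 0.267% lower. The median log2 fold change was 1.48 over the 9 members and 0.11 over all 12723 genes tested. The ribosome IPs and the control IP came from different transgenic lines, so line and tagged ribosomes cannot be told apart in this comparison. The control was 1 library, assumed in this fit to vary like the ribosome IPs, and without ribosome IP replicate 3 CG32557 was the only gene of the whole table that passed. The secondary cell markers iab-8, lectin-46Ca and CG17575 passed in the same comparison with log2 fold changes of 6.38, 3.81 and 3.78 (edgeR adjusted p = 0.0216, 0.0356 and 0.0378), while dve (4.39), lectin-46Cb (2.71), abd-A (2.09) and Abd-B (0.31) did not (edgeR adjusted p = 0.0664, 0.0945, 0.0624 and 0.867).

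**Figure D2:**
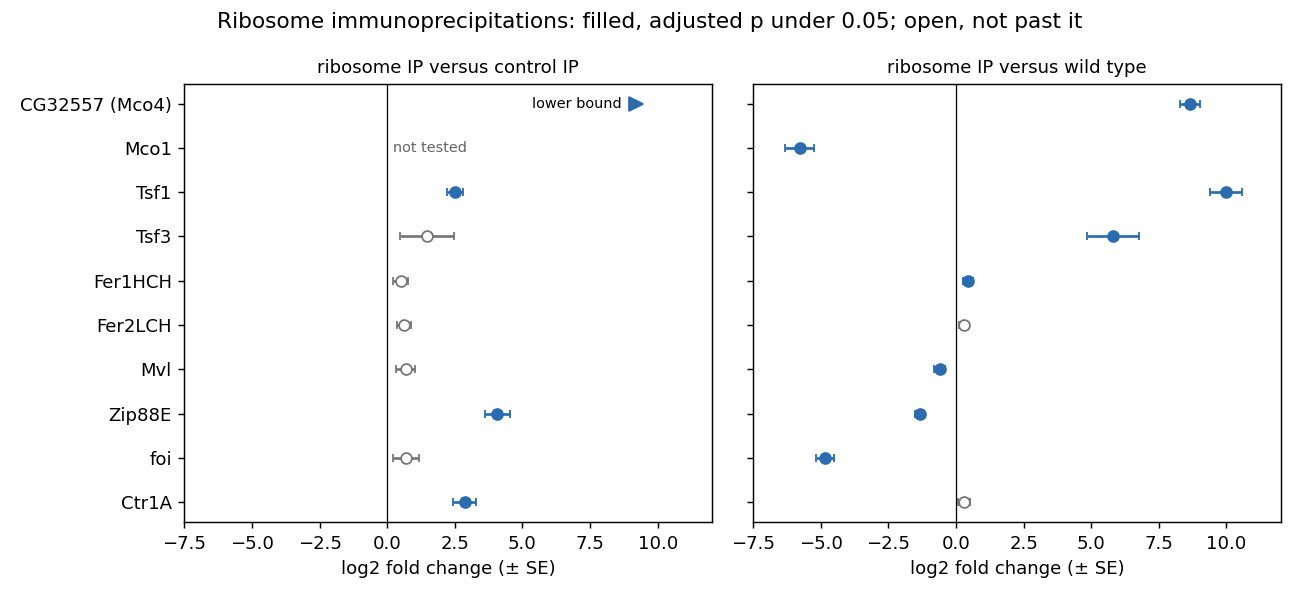
Log2 fold change (± SE) of each gene in the ribosome IPs over the control IP (left, 1 control library) and over wild type sorted cells (right); filled points passed an edgeR adjusted p of 0.05, and the arrowhead marks a lower bound. CG32557, Tsf1, Zip88E and Ctr1A are filled on the left; on the right Mco1 and foi lie at -5.78 and -4.85, while Mvl and Zip88E (library totals alone) and Fer2LCH and Ctr1A (upper-quartile factors) change sign with that scaling.

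The ribosome IPs and the sorted wild type cells differ in genotype and in the way the RNA was obtained as well as in the tagged ribosomes, and these cannot be told apart. Of the 10 members, 8 passed the test, 4 higher (CG32557, Tsf1, Tsf3 and Fer1HCH) and 4 lower (Mco1, foi, Zip88E and Mvl) in the ribosome IPs, against a background in which 80.6% of all genes passed, 49.1% higher and 31.5% lower. The members' share was therefore that of the table as a whole. The median log2 fold change was 0.29 over the members and 0.76 over all 11621 genes tested. The widest drop after Mco1 was that of foi, which had 35.9, 61.6 and 95.8 CPM in the ribosome IPs, against 638, 633 and 582 CPM in wild type (log2 fold change -4.85 ± 0.34, edgeR adjusted p = 2.26e-06). All 7 secondary cell markers were lower in the ribosome IPs as well, by log2 fold changes of -5.77 to -3.72 (edgeR adjusted p between 8.84e-08 and 5.20e-05), and their part in the drops of Mco1 and foi was not tested.

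The smaller differences in that comparison depended on the scaling. With library totals in place of TMM factors, the median of all genes moved by 1.56 on the log2 scale. Zip88E, at -1.35 ± 0.17 (edgeR adjusted p = 9.83e-05), then stood at 0.23, and Mvl, at -0.60 ± 0.20 (edgeR adjusted p = 0.0195), stood at 0.98. Fer1HCH was higher by 0.45 ± 0.18 (edgeR adjusted p = 0.0428), and by 0.11 with upper-quartile factors, which did not pass (edgeR adjusted p = 0.551). Of 14 alternatives, 6 ended the call of Fer1HCH and 7 that of Mvl. Fer2LCH (0.28, edgeR adjusted p = 0.150) and Ctr1A (0.30, edgeR adjusted p = 0.208) did not pass and changed sign with upper-quartile factors. The directions of CG32557, Tsf1, Tsf3, Mco1 and foi were the same under every scaling tried.

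The comparison of D1 with wild type asks which transcripts of the sorted cell depend on the region that the lesion affects. Of the 9 members with enough counts to be tested, 2 fell in D1 and none rose, against 9.77% of all genes called, 6.14% higher and 3.62% lower. Those were Mco1 and Zip88E. CG32557 and Tsf1 had enough counts to be tested among sorted cells only through the D1 libraries, where they were high. For both, the separation of D1 from wild type therefore adds no support. The median log2 fold change was -0.17 over the 9 members and 0.0037 over all 8222 genes tested. Fewer cells of a type in the sort and less RNA per cell cannot be told apart in such bulk libraries.

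Mco1 had 0.762, 4.02 and 4.22 CPM in D1 and 6.55, 7.93 and 5.52 CPM in wild type cells, with D1 replicate 1 lowest and no overlap between the groups. On the TMM scale it averaged 2.05 ± 1.05 CPM in D1 and 8.19 ± 1.44 CPM in wild type (SD, n = 3 each). The fall was 3.93-fold (log2 fold change -1.97 ± 0.43, edgeR adjusted p = 0.0176). Without wild type replicate 1 or replicate 2 the adjusted p was 0.0523 or 0.0756, and with library totals alone the log2 fold change of -1.15 did not pass (edgeR adjusted p = 0.171).

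Zip88E had 13.2, 20.5 and 23.5 CPM in D1 and 32.6, 28.9 and 28.2 CPM in wild type cells, again without overlap. On the TMM scale it averaged 14.3 ± 0.73 CPM in D1 and 36.7 ± 2.20 CPM in wild type (SD, n = 3 each), the smallest spread in proportion among the members of D1. The fall was 2.57-fold (log2 fold change -1.36 ± 0.19, edgeR adjusted p = 0.00178). It passed with each library left out in turn, and did not with library totals alone (-0.65, edgeR adjusted p = 0.121). The lack of overlap for Mco1 and Zip88E adds no support, as the test had picked them from the same libraries. On the TMM scale CG32557, Tsf1, Fer1HCH and foi, which did not pass, did not overlap either.

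CG32557 had 1.05, 7.27 and 5.58 CPM in D1, against 0.298, 0.661 and 0.230 CPM in wild type cells, from 22, 141 and 119 counts in D1. All D1 libraries lay above all wild type libraries, and D1 replicate 1 was the lowest of the 3. The log2 fold change of 2.70 ± 0.95 did not pass (edgeR adjusted p = 0.112). Of 18 alternatives, 13 did not pass either, with an edgeR adjusted p of up to 0.311, and 5 did. It passed without D1 replicate 1 (3.09, edgeR adjusted p = 0.0326) and without miP replicate 3 (2.74, edgeR adjusted p = 0.0378). It also passed without the D1 and miP libraries numbered 1 (3.10, edgeR adjusted p = 0.0205). The others were library totals alone (3.54, edgeR adjusted p = 0.0431) and DESeq2 (2.76, DESeq2 adjusted p = 0.0174). The balance of the oxidase pair within each library was not tested and is given as a description. CG32557 held 68.3, 73.9 and 67.4% of the CPM per kb of both genes in D1, 9.37, 4.28 and 28.8% in miP, and 6.65, 11.5 and 6.13% in wild type, so that every D1 library lay apart from the other sorted libraries. As Mco1 was called from these same libraries and CG32557 could be tested only through D1, that separation adds no support.

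Tsf1 had 0.858, 1.03 and 1.31 CPM in D1 and 0, 0.330 and 0.115 CPM in wild type cells, a log2 fold change of 2.15 ± 1.21 that did not pass (edgeR adjusted p = 0.344). The fat body marker sum was 2.14 to 8.49 CPM in D1 and 0.766 to 3.11 CPM in wild type, and its part in these low values was not tested. Tsf3 was not tested among the sorted cells, with 0, 6 and 5 counts in D1, 0, 2 and 0 in miP, and 0, 1 and 0 in wild type. The ratio of pooled counts in D1 to wild type, scaled by TMM, was 7.71 for Tsf3, with a counting interval (95%, exact) of 1.12 to 332. That interval leaves out the spread between libraries, so it does not stand in for a test. The highest value of either transferrin in a sorted library was 1.31 CPM.

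The ferritin chains did not pass the test between D1 and wild type. Fer1HCH had 106, 140 and 136 CPM in D1 and 141, 120 and 128 CPM in wild type (log2 fold change -0.69 ± 0.23 on the TMM scale, edgeR adjusted p = 0.0999). Fer2LCH had 179, 182 and 171 CPM in D1 and 146, 118 and 123 CPM in wild type (-0.17 ± 0.32, edgeR adjusted p = 0.833; 0.45 with library totals alone). The ratio of Fer1HCH to Fer2LCH counts within a library needs no scaling factor. It was 0.593, 0.770 and 0.797 in D1 (0.720 ± 0.111, SD, n = 3), 0.986, 1.26 and 1.19 in miP (1.15 ± 0.144), and 0.959, 1.01 and 1.04 in wild type (1.00 ± 0.0401). Every D1 library thus had a lower heavy to light ratio than any other sorted library. The exact two-sided permutation test gave p = 0.1 for D1 against wild type and for D1 against miP, the smallest value that 3 libraries a group allow, and p = 0.133 after adjustment over the 4 comparisons made. For miP against wild type the same exact test gave p = 0.3. The ratio was 1.24, 1.06 and 1.08 in the ribosome IPs (1.13 ± 0.0949) and 1.23 in the control IP. The ribosome IPs all lay above the wild type libraries, and the exact test of that difference also gave p = 0.1 (0.133 adjusted).

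**Figure D3:**
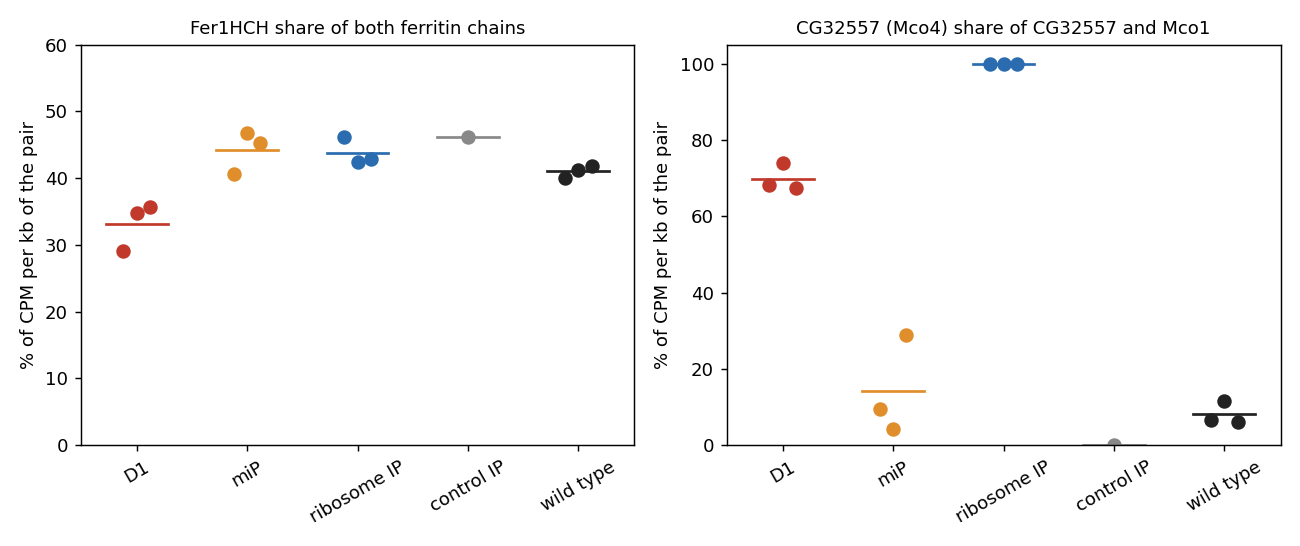
Left, share of Fer1HCH in the CPM per kb of both ferritin chains; right, share of CG32557 in the CPM per kb of CG32557 and Mco1; points are libraries and bars are group means, in percent. The D1 libraries sit at 29.1 to 35.6% on the left and 67.4 to 73.9% on the right, apart from the miP and wild type libraries in both panels. On the right this adds no support, as Mco1 was called from the same libraries. The control IP point at 0% on the right rests on 1 count.

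The remaining transporters did not pass between D1 and wild type. Mvl had 14.0, 60.1 and 59.6 CPM in D1, against 18.6, 19.7 and 19.8 CPM in wild type, so that D1 replicate 1 lay below and the other D1 libraries above every wild type library (log2 fold change 0.38 ± 0.32, edgeR adjusted p = 0.569). Without D1 replicate 1 it was 0.70 and passed (edgeR adjusted p = 0.0150). The gene foi had 199, 888 and 1152 CPM in D1, against 638, 633 and 582 CPM in wild type. On the CPM scale D1 replicate 1 was again below and the others above every wild type library. On the TMM scale every D1 library lay below every wild type library, with means of 511.2 ± 262.2 CPM and 758.5 ± 26.14 CPM (SD). The log2 fold change with TMM factors was -0.57 ± 0.37 (edgeR adjusted p = 0.417), and with library totals alone it was 0.27. Ctr1A had 8.91, 10.7 and 14.6 CPM in D1 and 6.76, 6.33 and 6.79 CPM in wild type, and its log2 fold change after scaling was 0.09 ± 0.24 (edgeR adjusted p = 0.880), with a value of -0.0033 when D1 replicate 1 was left out. Without D1 replicate 1, 5 members passed in place of 2, with CG32557 and Mvl higher and Fer1HCH lower (-0.84, edgeR adjusted p = 0.0153).

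For the miP mutant the same fit called none of the 9 members tested, and 0.0851% of all genes, which were 7 (0.0243% higher and 0.0608% lower). No member reached an unadjusted p of 0.05 in edgeR, while 292 of all genes did, and DESeq2 called no member and 33 genes. The miP libraries of CG32557 differed widely among themselves: 0.376, 0.336 and 3.57 CPM, against 0.298, 0.661 and 0.230 CPM in wild type. Its log2 fold change of 1.53 ± 0.93 (edgeR adjusted p = 0.940) rested on miP replicate 3, without which it was -0.25. Mco1 had 5.70, 11.8 and 13.8 CPM in miP, against 6.55, 7.93 and 5.52 CPM in wild type (0.38 ± 0.41, edgeR adjusted p = 0.940), and Zip88E had 30.0, 35.8 and 32.2 CPM in miP, against 32.6, 28.9 and 28.2 CPM in wild type (-0.09 ± 0.19, edgeR adjusted p = 0.943; 0.13 with library totals alone). The miP and wild type ranges overlapped for both. The median log2 fold change of the 9 members was 0.11, and that of all genes tested -0.01. In a fit of the miP and wild type libraries alone, 7 members could be tested, without CG32557 and Tsf1, and none was called. The near absence of calls over the whole table depended on the libraries used. With the D1 and miP libraries numbered 1 left out together, 993 genes were called in place of 7 (361 higher and 632 lower), and still no member.

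The 2 mutants were also compared directly, which tests whether their differences from wild type differ; the comparisons of each with wild type share the same 3 wild type libraries. Of the 9 members tested, 3 were lower in D1 than in miP and none was higher, against 10.5% of all genes called, 6.74% higher and 3.81% lower. Mco1 differed by -2.35 ± 0.44 on the log2 scale (edgeR adjusted p = 0.00718), Zip88E by -1.27 ± 0.19 (edgeR adjusted p = 0.00235) and Fer1HCH by -0.84 ± 0.23 (edgeR adjusted p = 0.0468). On the TMM scale Mco1 averaged 2.05 ± 1.05 CPM in D1 and 10.6 ± 3.10 CPM in miP, Zip88E 14.3 ± 0.73 CPM in D1 and 34.6 ± 3.65 CPM in miP, and Fer1HCH 98.4 ± 16.4 CPM in D1 and 177 ± 44.7 CPM in miP (SD, n = 3 each). The libraries of the 2 mutants did not overlap for any of the 3 genes. The test had picked these genes from the same libraries, so this adds no support. Tsf1, which did not pass, did not overlap either. The call of Fer1HCH was lost in 13 of 19 alternatives (adjusted p between 0.00229 and 0.317 over all of them), and library totals alone ended all 3 calls.

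**Figure D4:**
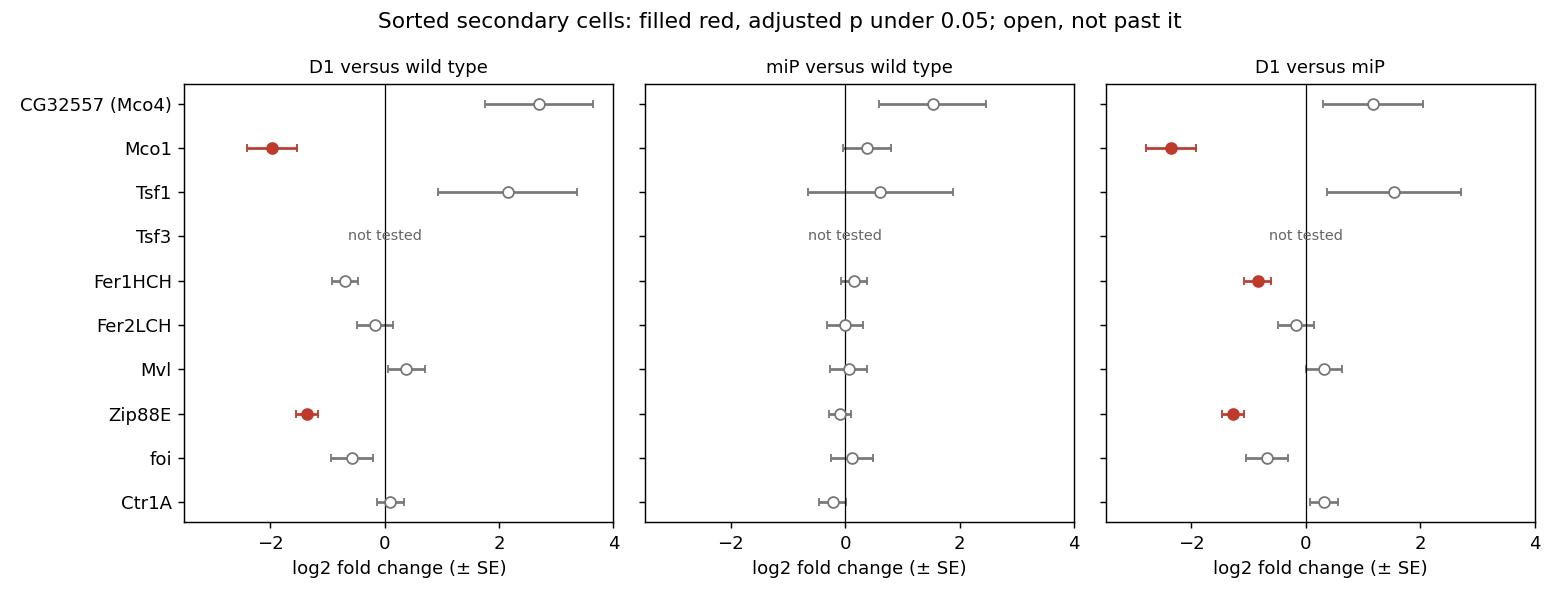
Log2 fold change (± SE) of each gene among the sorted cells for D1 over wild type (left), miP over wild type (middle) and D1 over miP (right); filled points passed an edgeR adjusted p of 0.05. Mco1 and Zip88E are filled at -1.97 and -1.36 on the left and at -2.35 and -1.27 on the right, no point is filled in the middle; with library totals alone Fer2LCH (left and right), foi (left), Zip88E and Ctr1A (middle) change sign.

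The sorted libraries also held counts of markers listed for other cell types, which were not tested as lists. The main cell markers summed to 336 to 858 CPM in D1 and 66.2 to 454 CPM in wild type, ranges that overlapped. The 3 neuron markers summed to 108 to 143 CPM in D1, 12.7 to 15.5 CPM in miP and 29.9 to 35.1 CPM in wild type. In D1 and wild type most of it was from nSyb, with elav at 7.96 to 8.87 CPM in D1 and 4.53 to 6.67 CPM in wild type. The nSyb transcript was also at 78.4 to 114 CPM in the ribosome IPs, against 7.03 CPM in the control IP. The part of these markers in the differences of the metal genes was not tested.

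Of the genes called between D1 and wild type, 62.9% were higher with TMM factors and 92.6% with library totals alone, which raised the median of all genes by 0.72 on the log2 scale. The matching shares were 63.9 and 89.1% for D1 against miP, 28.6 and 0% for miP against wild type (of 7 and 3 genes), 60.9 and 87.2% for the ribosome IPs against wild type, and 92.4 and 66% for the ribosome IPs against the control. For Mco1, Zip88E and CG32557 in D1 the direction was the same under every scaling tried.

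Over the 9 sorted libraries, the tested genes whose normalised log2 levels followed Mco1 most closely were 26-29-p (a cysteine proteinase), Men (malic enzyme) and CG12236, with Pearson r of 0.993, 0.991 and 0.990. For Zip88E they were CG43218 (0.993), CG13822 (0.992) and CG31690 (0.992), and for Fer1HCH CG11982 (0.964), the ribosomal protein gene RpL22 (0.962) and GLaz (0.956), a lipocalin. These are the top 3 of 8221 genes in each case, over libraries that share the D1 contrast and its scaling, and are given as a description.

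Of 53 other metal genes, 39 could be tested among the sorted cells. In D1, 1 of 19 iron and heme genes, 2 of 10 copper genes and 2 of 10 zinc genes rose against wild type, and none fell. Of all genes tested, 6.14% were higher. In D1, 3 of the 39 were lower at an unadjusted p under 0.05 in edgeR, and DESeq2 called 0 lower. In miP edgeR called none of the 39, none reached an unadjusted p of 0.05 there, and DESeq2 called none. The median log2 fold change in D1 was -0.16 for the iron and heme genes, 0.12 for the copper genes and 0.14 for the zinc genes.

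The one iron and heme gene that rose was CG1275, of the cytochrome b561 family of transmembrane electron carriers. It had 94.3, 210 and 178 CPM in D1 and 21.6, 18.3 and 21.5 CPM in wild type (log2 fold change 2.23 ± 0.21, edgeR adjusted p = 1.50e-04). MtnA, the major metallothionein of flies, had 2212, 929 and 652 CPM in D1 and 170, 135 and 157 CPM in wild type (2.61 ± 0.64, edgeR adjusted p = 0.0301). D1 replicate 1, the library that stood apart, was the highest of all for MtnA. Without D1 replicate 1 the log2 fold change was 1.44, which passed. The call was lost without any 1 of the wild type libraries, with an adjusted p of 0.102 to 0.129.

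Scox, a copper chaperone for cytochrome c oxidase assembly, had 31.3, 31.3 and 31.9 CPM in D1 and 6.25, 4.25 and 5.71 CPM in wild type (log2 fold change 1.92 ± 0.28, edgeR adjusted p = 0.00217). ZnT86D, of the ZnT family that moves zinc out of the cytosol, had 56.7, 115.1 and 139.9 CPM in D1 and 20.1, 19.8 and 21.8 CPM in wild type (1.58 ± 0.21, edgeR adjusted p = 0.00117). Zip99C, a ZIP family member known in flies for moving iron into the secretory pathway, rose by 0.99 ± 0.27 (edgeR adjusted p = 0.0465), a call lost in 10 of 19 alternatives. For CG1275, Scox and ZnT86D, no alternative ended the call.

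**Figure D5:**
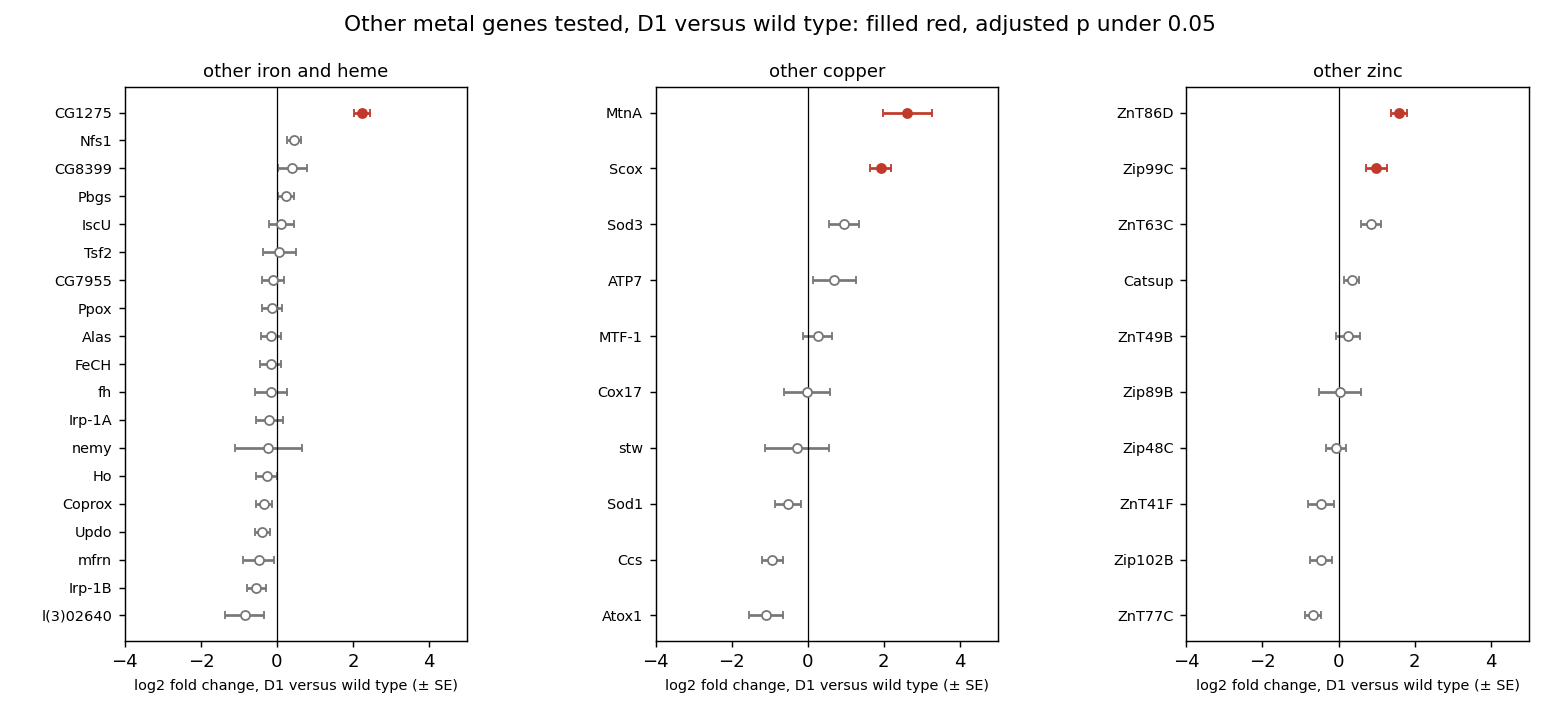
Log2 fold change (± SE) of D1 over wild type sorted cells for the 39 other metal genes tested, in 3 panels for iron and heme, copper and zinc; filled points passed an edgeR adjusted p of 0.05. CG1275, MtnA, Scox, ZnT86D and Zip99C lie at 2.23, 2.61, 1.92, 1.58 and 0.99, and no gene that fell is filled.

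Between the mutants, CG1275 (2.63 ± 0.21, edgeR adjusted p = 5.24e-05), MtnA (2.61 ± 0.64, 0.0282), Scox (1.44 ± 0.28, 0.00896) and ZnT86D (1.39 ± 0.21, 0.00209) were higher in D1 than in miP, the call of MtnA being lost in 5 of 19 alternatives and its log2 fold change being 1.43 without D1 replicate 1. ZnT77C, another ZnT family gene, was lower by -0.90 ± 0.22 (edgeR adjusted p = 0.0270), with 67.3, 142 and 172 CPM in D1 and 112, 180 and 208 CPM in miP, a call lost in 10 of 19 alternatives. By CPM per kb the most abundant of the 53 in wild type cells were Sod1 (the cytosolic copper and zinc superoxide dismutase) with 315, MtnA with 220 and CG8399, a relative of ferric reductases, with 63.6.

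In the IPs, several of the other metal genes were high that had 0 counts in the sorted wild type cells. Fer3HCH, the mitochondrial ferritin, had 43.1, 48.04 and 45.5 CPM in the ribosome IPs and 26.8 CPM in the control IP. Over wild type it was at least 363.9-fold higher on the TMM scale, taking 3 counts in the pooled group as the floor, ZnT33D at least 246.5-fold and Ctr1C, a copper importer of the male germ line, at least 198.6-fold. The metallothionein MtnF (CG43222) had 3 counts in wild type, and its ratio of pooled counts, scaled by TMM, was 1656 with a counting interval (95%, exact) of 566.6 to 8033. None of these 4 passed edgeR's test against the control IP, although DESeq2 called Fer3HCH higher in the ribosome IPs. In the control, ZnT33D (51.9 CPM), Ctr1C (32.4) and MtnF (439) stood above the mean of the ribosome IPs. The summed testis markers were also higher in the control IP than in the ribosome IPs, and their part in these levels was not tested.

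Against the control IP, 2 of 20 iron and heme genes, 2 of 15 copper genes and 0 of 14 zinc genes were higher in the ribosome IPs by edgeR, and none was lower; of all genes tested, 3.25% were higher. DESeq2 called 6 iron and heme genes, 4 copper genes and 3 zinc genes higher, the zinc genes being Zip71B, ZnT41F and ZnT63C, and 5 zinc genes were higher in edgeR at an unadjusted p under 0.05. The 4 genes called by edgeR were Tsf2, the melanotransferrin of septate junctions (2.63 ± 0.44, edgeR adjusted p = 0.0315), Updo, an enzyme of heme synthesis (1.75 ± 0.32, 0.0364), Sod3, the extracellular superoxide dismutase (2.77 ± 0.44, 0.0272), and Atox1, a copper chaperone (1.78 ± 0.29, 0.0289). Sod3 had 713, 476 and 464 CPM in the ribosome IPs and 107 CPM in the control IP, a gap larger than the spread of the ribosome IPs. With library totals alone Tsf2 (edgeR adjusted p = 0.0558), Atox1 (0.0568) and Updo (0.0729) did not pass. Without ribosome IP replicate 3 none of the 4 passed, with edgeR adjusted p between 0.0560 for Sod3 and 0.113 for Updo.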

How the data were processed

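The authors deposited counts of reads per gene for 13 libraries. Per the labels' protocols, 2 ng of RNA was reverse transcribed with poly(dT) primers (SMARTer), made into unstranded Nextera XT libraries and read from one end for 100 nt. Per the submitters' processing notes, STAR and HTSeq were used with dm6, with neither versions nor settings given in the sources used here. Per the labels, the replicates are biological. Reads carried no molecular identifiers, so floors (3 counts) and intervals cover counting error only.

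Tests used edgeR 4.0.16 in R 4.3.3: TMM factors, its default expression filter, quasi-likelihood tests and Benjamini-Hochberg adjustment over all genes tested, with a threshold of 0.05. The 9 sorted libraries shared a fit, and the ribosome IPs were fitted with wild type and, separately, with the control. Values per library are CPM of the library total, and fold changes and the means on the TMM scale include the factors. Exon lengths and positions are those of Ensembl release 115 on dm6. DESeq2 1.42.0 and limma 3.58.1 (loaded by edgeR), Python 3.11.15, pandas 2.3.3, numpy 2.4.6, scipy 1.17.1 and matplotlib 3.10.9 were also used, and scripts were tested on simulated data.

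The members, lists, tests and alternatives were chosen with earlier results of these data known. Named were all 10 members, other metal genes past the threshold among sorted cells, the 3 most abundant of these lists in wild type, up to 4 per IP comparison past it only there, and the 3 genes most like each member called among sorted cells (prior count 2). Alternatives were DESeq2, RLE and upper-quartile factors, library totals alone, no filter, 5 CPM in 3 libraries, other sets of libraries, each library left out, D1 and miP replicates 1 left out together, and a replicate block. A fit of the IPs with the wild type libraries added was chosen after seeing the data, and called the same 4 members against the control. Same-numbered D1 and miP libraries had r of 0.449, 0.194 and 0.322, and differently numbered ones -0.388 to 0.173. The r of 0.173, for D1 replicate 2 with miP replicate 3, was close to the 0.194 of the libraries numbered 2. A pairing of D1 and miP by number is thus at most a hint from the data alone. The block changed none of the members' calls between D1 and miP.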

Additional observations from a re-analysis of the deposited data

Results flagged for a closer look

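The following genes are singled out because D1 and miP, each set against the same wild type libraries, differed from each other by the edgeR test of D1 over miP (log2 fold changes, 3 libraries each). Among the 10 members these were Mco1 at -2.35, Zip88E at -1.27 and Fer1HCH at -0.84. Each of the 3 D1 libraries lay below each of the 3 miP libraries for all 3 genes on the TMM scale. This adds no support, as the test had picked the genes from the same libraries. Among the other metal genes they were CG1275 at 2.63, MtnA at 2.61, Scox at 1.44, ZnT86D at 1.39 and ZnT77C at -0.90. The effect in miP over wild type did not pass for any of the 8 genes, and the value for MtnA in D1 was highest in replicate 1 (2212 CPM).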

How the results depend on the processing

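The members called numbered 2 in D1 against wild type, 3 in D1 against miP, 0 in miP against wild type, 8 in the ribosome IPs against wild type and 4 against the control IP. Library totals alone gave 1 (CG32557) and 0 for the first pair of these. Leaving out the D1 and miP libraries numbered 1 together gave 6 and 5, with CG32557, Fer1HCH, Fer2LCH and Mvl gained against wild type and Mvl and foi gained against miP. Leaving out 1 library gave 1 to 5, 2 to 4, 0, 6 to 8 and 1 to 5 members in the order above, the lowest against the control without ribosome IP replicate 3 and the highest without replicate 1, where foi passed (0.96, edgeR adjusted p = 0.0372). In a fit of all 13 libraries Tsf1 no longer passed against the control (edgeR adjusted p = 0.213). The cause was not tested for any of these.

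Some log2 fold changes turned sign, most of them of genes that were not called. With library totals alone these were Fer2LCH (0.45) and foi (0.27) in D1 against wild type, Zip88E (0.13) and Ctr1A (0.015) in miP against wild type, Fer2LCH (0.28) in D1 against miP, and, both called with TMM factors, Mvl (0.98, edgeR adjusted p = 0.00338) and Zip88E (0.23) in the ribosome IPs against wild type. With upper-quartile factors they were Fer2LCH (-0.059) and Ctr1A (-0.044) in the ribosome IPs against wild type. Fer2LCH in miP against wild type was -0.013 without a filter and -0.012 in the fit of all libraries. Without the D1 and miP libraries numbered 1, Ctr1A was -0.0036 in D1 against wild type, and in miP against wild type Tsf1 was -0.86, Fer1HCH -0.082, Fer2LCH -0.38 and Mvl -2.1e-04. With each library left out, Fer2LCH ranged over -0.48 to 0.027 and Ctr1A over -0.0033 to 0.25 in D1 against wild type, and Fer2LCH over -0.48 to 0.21 in D1 against miP. In miP against wild type the ranges were -0.25 to 2.09 for CG32557, -0.86 to 1.85 for Tsf1, -0.083 to 0.28 for Fer1HCH, -0.38 to 0.16 for Fer2LCH, -8.6e-04 to 0.15 for Mvl and -0.16 to 0.0097 for Zip88E. The cause was not tested for any of these. Of all alternatives run for single genes, 907 kept direction and side of the threshold, 74 lost and 21 gained a call and 30 turned sign.

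Genes called over the whole table ranged from 370 to 2860 around 803 in D1 against wild type (2095 without D1 replicate 1), 0 to 993 around 7 in miP against wild type, 475 to 1739 around 867 in D1 against miP, 7230 to 9837 around 9361 in the ribosome IPs against wild type and 1 to 1914 around 448 against the control. The values of 2860, 993 and 1739 came from leaving out the D1 and miP libraries numbered 1 together. The replicate block gave 2, 0, 3 and 7 members and 820, 4, 875 and 8860 genes in the comparisons other than that with the control, where no paired analysis was possible because the control is 1 library and shares fewer than 2 numbers with the ribosome IPs. The numbers are those of the titles; the labels' descriptions number the IPs otherwise, and by these 1 ribosome IP shares its number with the control, which was not used. Under that block Fer2LCH in miP against wild type was -0.070, and Fer1HCH lost its call in the ribosome IPs against wild type. Outside D1 and miP, same-numbered libraries had r of -0.23, -0.0319 and -0.239 (D1 and wild type), 0.0125, 0.311 and -0.27 (miP and wild type) and -0.00861, 0.0495 and -0.0673 (ribosome IP and wild type), so they share only a number. The control could not be left out. The depth of the control, 3.70 in units of 1e6 counts, limits what the control can show of genes below 0.811 CPM.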
